A study of Homo sapiens with 26 samples.

Results

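The collagen genes were taken as every gene symbol made of COL, a number, A and a number, such as COL4A2. The rule found 44 of the 26485 genes listed in each of the deposited count tables, and it used no measured value. RNA sequencing had been run on 26 libraries in 8 groups, all derived from KELLY, an established neuroblastoma cell line of human origin in which MYCN is amplified. In culture, 3 lines carried a doxycycline-inducible lentiviral vector with green fluorescent protein. The EV line held the empty vector, F1HUTG in the labels, and the sh4 and shAMB lines each held a different short hairpin RNA directed at RUNX1T1, a transcriptional corepressor. Each line was given DMSO or doxycycline for 72 h, with 3 libraries in every group. The xenografts were grown under the skin of female NOD SCID gamma mice, a few weeks old at engraftment, from KELLY cells that contained hairpin vector and were injected in Matrigel, a protein matrix that itself holds laminin and collagen IV. These mice lack lymphocytes but keep their own fibroblasts and vessels. Tumours from mice on control food are labelled wild type, and tumours from mice on doxycycline food are labelled RUNX1T1 knock-out, with 4 libraries in each group. No xenograft of the empty vector was analysed here, so doxycycline food and the knock-out label cannot be told apart. The labels do not say which hairpin line was grafted. The study describes its KELLY xenografts with the hairpin based on an Ambion sequence. For RNA sequencing it reports that hairpin in culture and in tumours, and its other hairpin in culture only. The name shAMB matches that hairpin, though no label links them. Nor do the labels say whether a line was a clone or a pool, or whether replicates came from separate cultures or animals. The p-values therefore measure the spread between libraries, which may be technical.

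Collagens are proteins of the extracellular matrix in which 3 chains wind into a triple helix. Fibrillar collagens build the banded fibres of skin, bone and cartilage, collagen IV forms the sheet of basement membranes, and fibril-associated collagens decorate the fibres without forming fibres themselves. In solid tumours most fibrillar collagen is usually made by stromal fibroblasts, while neuroblastoma cells of the sympathetic (noradrenergic) type make little of it.

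The total expected count ranged from 35115915 to 54736733 in the cultures and from 47346063 to 62378060 in the xenografts, of which 8984 to 23754 counts per library fell on collagen genes. Small RNA genes took 0.717% to 1.55% of the counts in cultures and 7.05% to 18.3% in xenografts. Levels are given as CPM, the counts scaled to a common library size after TMM adjustment within each table. RUNX1T1 RNA stood at 44.1, 39.3 and 42.4 CPM in EV DMSO, 36.5, 37.8 and 38.6 in EV doxycycline, 34.7, 33.3 and 35 in sh4 DMSO and 31.2, 33.9 and 30.1 in sh4 doxycycline. It stood at 40.8, 42.0 and 39.9 CPM in shAMB DMSO, 41.3, 44.1 and 42.2 in shAMB doxycycline, 34.3, 43.1, 30.0 and 34.4 in control xenografts and 24.3, 35.2, 27.3 and 33.9 in the xenografts labelled knock-out. RUNX1T1 did not pass the test with doxycycline in sh4 (log2 fold change -0.11 ± 0.05 SE, edgeR adjusted p = 0.117), in shAMB (0.06 ± 0.05, adjusted p = 0.378) or between the xenografts (-0.23 ± 0.15, adjusted p = 0.229), and in EV its libraries were lower with no overlap and it did not pass either (-0.16 ± 0.05, adjusted p = 0.672). The effect of doxycycline on RUNX1T1 in shAMB minus that in EV passed in the direction against the knock-down (0.21 ± 0.08, adjusted p = 0.0353). The RNA therefore does not check these labels, and the tumours are called labelled knock-out. All 8 noradrenergic neuroblastoma markers were expressed, with summed levels of 3225 to 7794 CPM in cultures and 3393 to 9194 CPM in xenografts. Their sum was higher with doxycycline in sh4 (4536 to 5749 against 3225 to 3722 CPM) and in shAMB (7083 to 7794 against 3225 to 3301 CPM), with no overlap. By gene, 4 of the 8 were called higher and 2 lower in sh4, and likewise in shAMB, so the sum does not speak for every marker. Over all genes tested, 40.9% passed in sh4 and 66.0% in shAMB. The markers of other cell types are given beside the comparisons of xenografts. One library stood apart in each of 2 groups: summed collagen CPM was 468 in sh4 doxycycline replicate 3 against 321 and 349 in its group, and 188 in labelled knock-out replicate 4 against 303 to 392.

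Genes with too few counts were left out of the tests. The fit to cultures kept 28 collagen genes, the fit to xenografts 37 and the fit to both 36. COL1A2, COL4A5, COL5A3, COL15A1, COL20A1, COL25A1 and COL26A1 were in no fit, and 18 of the 44 members had a mean under 1 CPM in every group. To compare genes, CPM was divided by the transcript length in kilobases that the authors deposited (RPKM). In the 18 cultures the highest collagen by mean RPKM was COL6A1, a chain of the beaded filaments of collagen VI, at 7.77 (range 4.80 to 12.7), followed by COL4A2 of the basement membrane at 6.48 (4.27 to 12.1). COL3A1, COL6A6, COL4A1 and COL2A1 followed at mean RPKM of 4.96, 4.86, 4.69 and 4.57. The library ranges of neighbours in this order overlapped. In the 8 xenografts the first place in RPKM was held by COL2A1, the main fibril chain of cartilage, at 15.6 (5.22 to 24.9). COL6A1 at 7.96, COL4A2 at 6.59, COL4A1 at 3.63, COL6A3 at 3.55 and COL6A6 at 3.19 came next. COL23A1, a transmembrane collagen, stood in seventh place at 2.55 RPKM. These places pool both tumour groups, and COL6A6 stood at a mean RPKM of 4.68 in control tumours, above COL4A1 at 4.49, and at 1.70 in labelled knock-out tumours. As shares of all collagen CPM, COL6A6 took 14%, COL4A2 13.8%, COL6A1 11.2%, COL4A1 10.5% and COL3A1 9.29% in cultures, and COL2A1 took 23.6% and COL4A2 12.3% in xenografts. Of the fibrillar chains, COL1A1 was expressed while COL1A2, which pairs with it in collagen I, reached at most 0.0779 CPM in any culture.

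**Figure D1:**
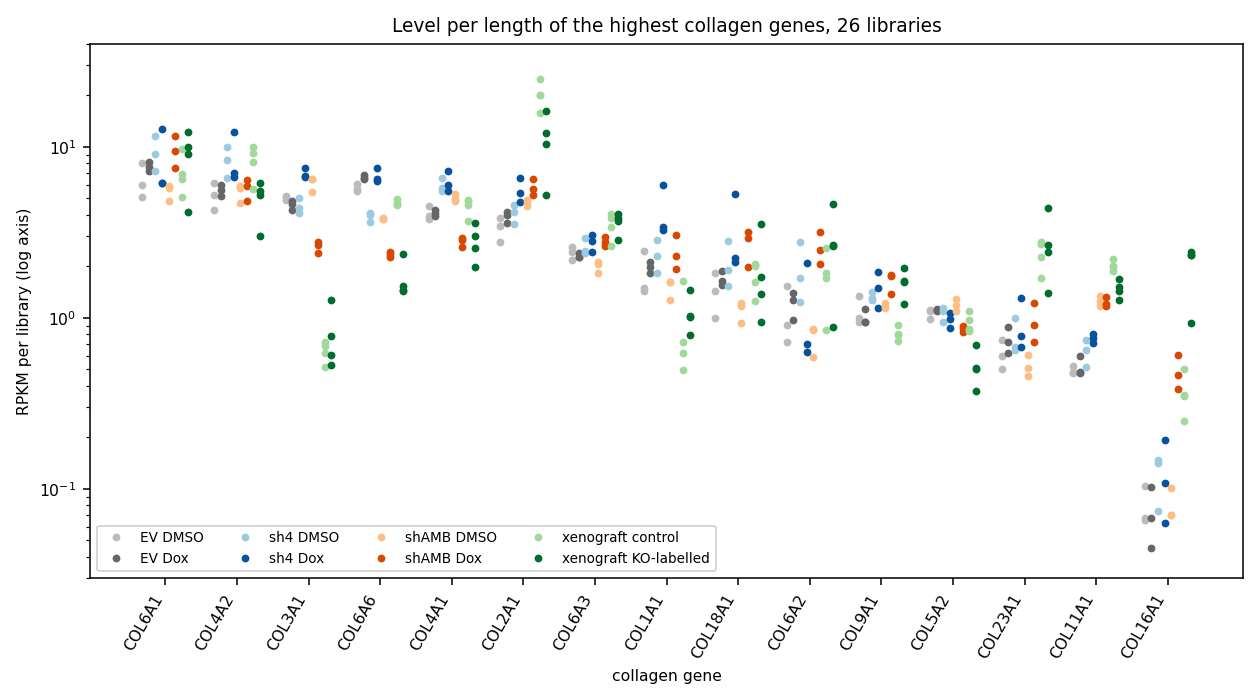
RPKM (log axis) of the collagen genes with the highest mean level in cultures or xenografts, 1 point for each of the 26 libraries, coloured by group. COL2A1 has its highest points in the control xenografts, COL3A1 has its lowest points in both xenograft groups, and COL16A1 has its highest points in the KO-labelled xenografts.

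Doxycycline without a hairpin was compared first, as the control for the drug. In the EV line 0 of the 28 collagen genes tested passed the threshold, against 0.0939% of all genes tested in that line. With edgeR 1 collagen gene had an unadjusted p under 0.05, and DESeq2 also called 0. The median log2 fold change was 0.08 over the collagen genes and 0.01 over all genes tested. COL6A5, the member that moved most in sh4, stood at 0.958, 0.890 and 1.61 CPM with DMSO and 1.15, 1.11 and 0.898 with doxycycline, so the groups overlapped. COL6A6, which also rose in sh4, was higher with doxycycline in EV with no overlap and did not pass (log2 fold change 0.21, edgeR adjusted p = 0.672). With trends of GC content and transcript length removed, COL6A6 passed in EV (0.24, edgeR adjusted p = 0.016).

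In the sh4 line, 9 of the 28 collagen genes tested were higher with doxycycline and 0 were lower. That is 32.1% of members, against 22.9% of all genes tested in the higher direction and 40.9% in either direction. With 28 genes these shares differ by few calls, and whether they differ beyond chance was not tested. The median log2 fold change was 0.20 over the members and -0.00 over all genes. The 9 genes were COL1A1, COL2A1, COL3A1 and COL27A1 of 8 fibrillar collagens tested, COL6A5 and COL6A6 of 6 in the collagen VI and VII class, and COL9A2, COL19A1 and COL22A1 of 6 fibril-associated collagens. None of the 3 collagen IV genes tested passed. In each of the 9, every doxycycline library lay above every DMSO library. The share of all genes for which this held was not counted, so it only describes the calls.

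COL6A5 and COL6A6 encode alternative chains that can take the place of the COL6A3 chain in collagen VI. COL6A5 was at 1.02, 1.02 and 1.03 CPM with DMSO and at 6.02, 5.35 and 4.96 CPM with doxycycline in the sh4 line. No other group held a library as high as these, and the log2 fold change was 2.41 ± 0.18 (SE, edgeR adjusted p = 2.99e-08). COL6A6 rose from 35, 30.7 and 33.8 CPM to 54.6, 63.5 and 53.7 CPM, a log2 fold change of 0.79 ± 0.06 (adjusted p = 1.09e-07). These levels were near those of EV, whose doxycycline libraries read 55.8, 57.8 and 55.1 CPM. COL3A1, the fibril chain of skin and vessel walls, rose from 27.4, 24.0 and 22.5 CPM to 36.7, 37.0 and 41.1 CPM (log2 fold change 0.63 ± 0.09, adjusted p = 3.05e-05). The groups did not overlap for any of these 3 genes.

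Among fibril-associated collagens in the sh4 line, COL19A1, a minor collagen of basement membrane zones, read 0.769, 0.865 and 0.881 CPM with DMSO and 1.91, 2.16 and 2.06 CPM with doxycycline. Its libraries were tight within each group and the log2 fold change was 1.29 ± 0.17 (adjusted p = 2.04e-05). COL9A2, 1 of the 3 chains of collagen IX on cartilage fibrils, went from 1.54, 1.44 and 1.27 CPM to 2.34, 2.80 and 4.07 CPM (1.11 ± 0.19, adjusted p = 0.000228). COL22A1, a collagen of tissue junctions such as that of muscle and tendon, went from 3.73, 2.77 and 2.79 CPM to 5.24, 4.94 and 7.66 CPM (0.94 ± 0.17, adjusted p = 0.000439). In the last pair of genes replicate 3 was the highest of the doxycycline libraries. The fibrillar COL27A1 read 0.788, 0.551 and 0.441 CPM with DMSO and 1.16, 1.52 and 2.06 CPM with doxycycline (1.39 ± 0.27, adjusted p = 0.000556).

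COL1A1 and COL2A1 gave the weakest of the sh4 calls. COL1A1 read 17.0, 13.6 and 10.8 CPM with DMSO and 19.2, 20.2 and 35.5 CPM with doxycycline (0.85 ± 0.25, adjusted p = 0.0132). COL2A1 read 23.3, 21.2 and 18 CPM and then 24.3, 27.4 and 33.6 CPM (0.44 ± 0.13, adjusted p = 0.0132). Without sh4 doxycycline replicate 3 the log2 fold changes were 0.51 for COL1A1 (adjusted p = 0.0632) and 0.31 for COL2A1 (adjusted p = 0.0502), and neither passed. The other 7 calls held without this library, and 2 more collagen genes passed, both lower. In that fit 3968 of the 15069 genes tested were called higher.

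**Figure D2:**
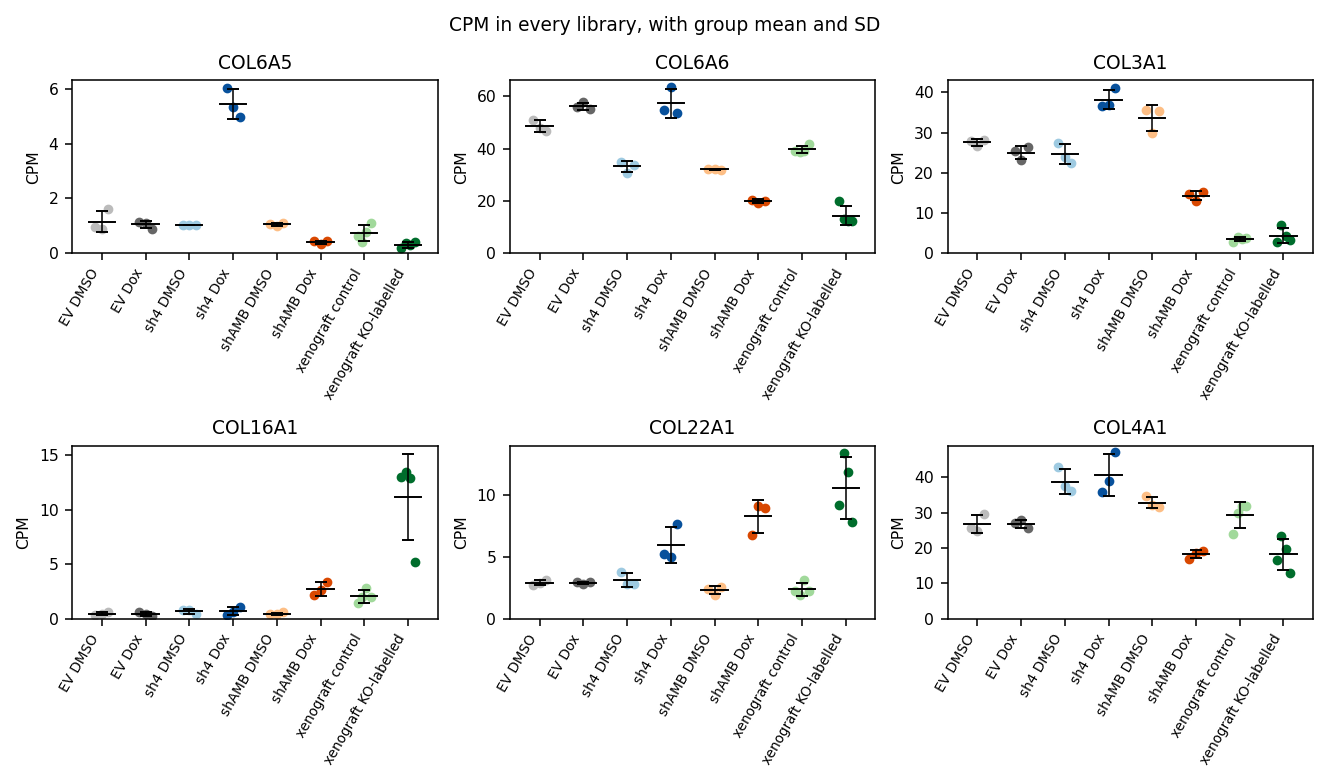
CPM of 6 collagen genes in every library (points), with the group mean (bar) and SD (whisker), for the 3 culture lines with DMSO and doxycycline (Dox) and for the control and KO-labelled xenografts. COL6A5, COL6A6 and COL3A1 go up with doxycycline in sh4 and down in shAMB, while COL16A1 and COL22A1 go up in shAMB and in the KO-labelled xenografts.

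In the shAMB line 20 of the 28 collagen genes tested passed, 15 higher and 5 lower. The groups overlapped in none of the 20, but the share of all genes without overlap was not counted, so this only describes the calls. That is 71.4% of the members, against 66.0% of all genes tested in either direction, 37.6% higher and 28.4% lower. The median log2 fold change was 0.69 over the members and 0.10 over all genes tested. By class, 3 fibrillar collagens were higher and 2 lower of 8 tested, 4 genes of the collagen VI and VII class were higher and 2 lower of 6, and 5 fibril-associated collagens were higher and 0 lower of 6. Both transmembrane collagens tested, COL13A1 and COL23A1, and COL18A1 were higher as well. When trends with GC content and transcript length were removed, COL1A1, COL6A1 and COL23A1 came to just under 0 and did not pass.

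The members called higher with the largest changes in shAMB included several fibril-associated chains. COL16A1, a minor collagen found beside fibrils and at the cell surface, read 0.394, 0.390 and 0.562 CPM with DMSO and 2.15, 2.59 and 3.39 CPM with doxycycline. Its doxycycline libraries were above all other cultures and the log2 fold change was 2.59 ± 0.36 (edgeR adjusted p = 1.23e-05). COL22A1 rose from 2.41, 1.92 and 2.54 CPM to 6.74, 9.09 and 8.93 CPM (1.85 ± 0.18, adjusted p = 2.64e-07). COL9A2 rose from 1.01, 0.806 and 1.31 CPM to 2.91, 2.78 and 3.44 CPM (1.54 ± 0.20, adjusted p = 6.41e-06). Its partner in collagen IX, COL9A3, stayed near or under 1 CPM, at 0.197, 0.234 and 0.241 with DMSO and 0.627, 1.07 and 0.969 with doxycycline (1.98 ± 0.36, adjusted p = 0.000155). The other partner, COL9A1, rose less, from 3.75, 3.48 and 3.58 CPM to 4.21, 5.44 and 5.38 CPM (0.48 ± 0.17, adjusted p = 0.0192), and its call was lost without DMSO replicate 2 (0.45, adjusted p = 0.0583) and without doxycycline replicate 2 (0.41, adjusted p = 0.0711) or 3 (0.42, adjusted p = 0.0649). The replicate block also ended it (0.47, adjusted p = 0.0576).

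COL7A1, which forms the anchoring fibrils beneath epithelia, read 1.40, 0.494 and 1.18 CPM with DMSO and 3.83, 5.53 and 6.97 CPM with doxycycline in shAMB (2.40 ± 0.44, adjusted p = 0.000178). COL6A2, the partner of COL6A1 in collagen VI, read 2.76, 1.92 and 2.81 CPM and then 6.78, 8.18 and 10.4 CPM (1.76 ± 0.42, adjusted p = 0.00174). The first of these chains, COL6A1, read 24.9, 20.3 and 24.2 CPM and then 32.0, 39.9 and 48.9 CPM (0.80 ± 0.26, adjusted p = 0.0128). The largest chain, COL6A3, changed less, from 20.2, 17.3 and 19.6 CPM to 24.9, 26.4 and 28.2 CPM (0.48 ± 0.10, adjusted p = 0.00057). COL5A1, a regulator of fibril width, went from 7.39, 5.90 and 7.19 CPM to 13.1, 13.1 and 16.7 CPM (1.07 ± 0.18, adjusted p = 0.000107). COL18A1, the basement membrane collagen from which endostatin is cut, went from 6.38, 5.04 and 6.66 CPM to 10.7, 15.9 and 17.2 CPM (1.28 ± 0.33, adjusted p = 0.0032). Of its exons, 18.5% of the length is overlapped by exons of SLC19A1 on the opposite strand, and whether the counting used strand is not given in the sources used here, so its value is uncertain.

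The 5 members that fell in shAMB were COL3A1, COL5A2, COL4A1, COL6A5 and COL6A6. COL3A1 fell from 35.7, 29.8 and 35.5 CPM with DMSO to 14.7, 13.1 and 15.2 CPM with doxycycline, the lowest libraries of all cultures (-1.23 ± 0.09, adjusted p = 1.13e-08). COL6A5 went from 1.06, 0.988 and 1.1 CPM to 0.425, 0.332 and 0.438 CPM (-1.40 ± 0.22, adjusted p = 3.75e-05). COL6A6 went from 32.3, 32.2 and 32.0 CPM to 20.5, 19.2 and 20 CPM (-0.69 ± 0.07, adjusted p = 2.29e-07). In both genes the groups did not overlap, as in sh4, and the fall of COL6A5 was smaller than its rise in sh4 on the log2 scale. COL4A1 went from 34.6, 32.2 and 31.7 CPM to 17.0, 18.7 and 19.1 CPM (-0.85 ± 0.10, adjusted p = 1.92e-06). COL5A2, the partner of COL5A1 in collagen V, went from 8.26, 7.62 and 8.99 CPM to 5.75, 6.21 and 6.05 CPM (-0.46 ± 0.10, adjusted p = 0.000507), so the chains of collagen V moved in opposite directions in this line.

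Collagen transcripts are rich in G and C and long. The median GC content of the longest transcript was 54.8% over the 44 members (41.0% to 67.4%) and 47.9% over the genes kept in culture, and the median deposited length was 5597 bases against 2948. In shAMB the 15 members over 60% GC had a median log2 fold change of 0.90, and the 1909 genes of that GC range had 0.93. The 8 members under 50% GC had a median of -0.25, and the 8177 genes of that range had -0.11. In sh4 the 15 members over 60% GC stood at 0.17 where all genes of that range stood at -0.29. With the trends removed, 18 collagen genes passed in shAMB, 9 higher and 9 lower, and 14 of them were among the 20 above. Over all 14905 genes tested in shAMB, 10730 then passed, against 9840 before. COL16A1 then stood at 1.78, COL7A1 at 1.30, COL22A1 at 1.2, COL9A3 at 1.02, COL6A2 at 0.83 and COL9A2 at 0.71 on the log2 scale. COL6A1, COL1A1 and COL23A1 turned to -0.01, -0.10 and -0.04, and none of these passed. COL6A3 (0.03), COL11A2 (0.14, adjusted p = 0.643) and COL18A1 (0.23, adjusted p = 0.0635) no longer passed either. COL3A1 at -1.46, COL4A1 at -1.30, COL6A5 at -1.53, COL6A6 at -0.86 and COL5A2 at -0.60 remained lower. COL4A4 at -0.91, COL4A2 at -0.74, COL27A1 at -0.51 and COL2A1 at -0.48 passed as lower only with the trends removed. In sh4 the same step gave 16 collagen genes, 14 higher and 2 lower, with all 9 genes above among them. Over all genes tested in sh4, 8223 then passed, against 6091 before, so the rise in calls was not particular to collagen genes.

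**Figure D3:**
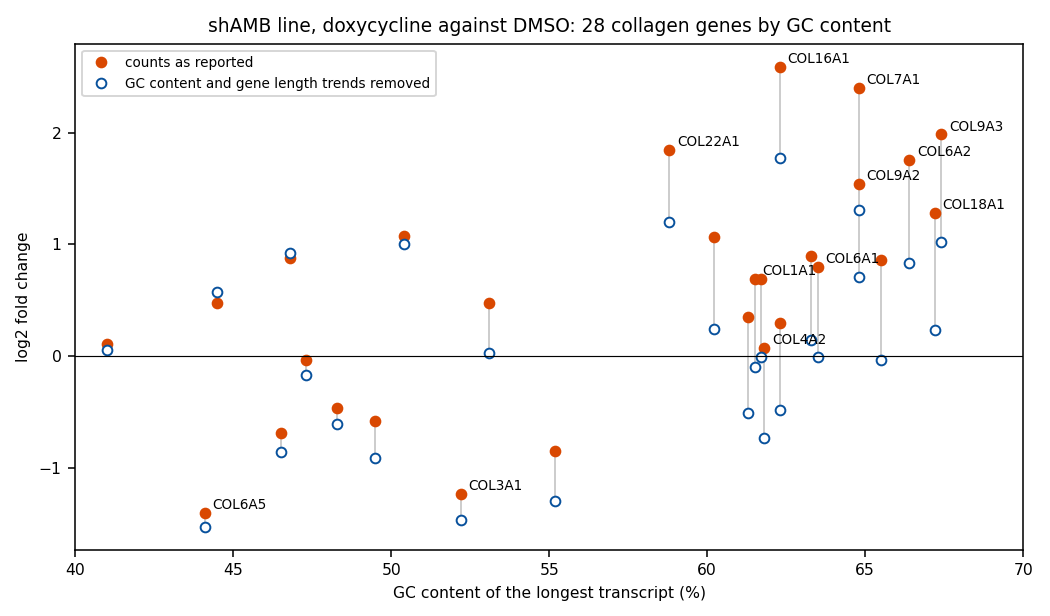
log2 fold change with doxycycline in the shAMB line for the 28 collagen genes tested, against GC content of the longest transcript, from the counts as reported (filled) and with GC content and gene length trends removed (open), joined by a line for each gene. Most genes over 60% GC move towards 0 when the trends are removed, and COL6A1, COL1A1 and COL23A1 end just under 0. COL2A1, COL27A1 and COL4A2, also over 60% GC, end further below 0, at -0.48, -0.51 and -0.74. Most genes under 50% GC move little.

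The doxycycline effects of the hairpin lines were compared with each other in the same fit. The difference of effects, sh4 minus shAMB, passed for 16 of the 28 collagen genes tested, 7 positive and 9 negative, against 60.9% of all genes tested. It was 3.81 ± 0.28 on the log2 scale for COL6A5 (edgeR adjusted p = 2.05e-08), 1.87 ± 0.13 for COL3A1 (adjusted p = 9.02e-09) and 1.48 ± 0.09 for COL6A6 (adjusted p = 4.09e-09). These 3 genes passed in both lines in opposite directions, higher in sh4 and lower in shAMB. COL19A1 (1.18), COL27A1 (1.04), COL4A1 (0.92) and COL5A2 (0.34) had positive differences too. The call of COL5A2 was lost in 10 and that of COL27A1 in 8 of 19 alternatives. For COL5A2 these included leaving out sh4 DMSO replicate 2, sh4 doxycycline replicate 1 or 2, shAMB DMSO replicate 1 or 3 or shAMB doxycycline replicate 1 or 3 (0.27 to 0.35), and for COL27A1 sh4 DMSO replicate 2 or 3, sh4 doxycycline replicate 3, shAMB DMSO replicate 1 or 3 or shAMB doxycycline replicate 1 or 2 (0.83 to 1.03). The difference was negative for COL16A1 (-2.61 ± 0.51, adjusted p = 0.00048), COL6A2 (-2.52 ± 0.58, adjusted p = 0.00174) and COL7A1 (-2.25 ± 0.59, adjusted p = 0.00425). For COL22A1, which was higher in both lines, the difference was -0.91 ± 0.25 (adjusted p = 0.00511), and with GC and length trends removed it was -0.18 and did not pass (adjusted p = 0.296). Against the EV line, the effect of doxycycline differed for 8 collagen genes in sh4 (7 positive, 1 negative), where 32.6% of all genes differed, and for 14 in shAMB (9 positive, 5 negative), where 45.5% did. COL1A1 and COL2A1 were not among the 8 of sh4, and COL1A1, COL6A1, COL9A1, COL13A1, COL18A1 and COL23A1 were not among the 14 of shAMB. Among the 14, the call of COL6A2 was lost in 11 of 19 alternatives. Among the 8, that of COL27A1 was lost in 5 of 19. In both genes most of these left out 1 library. The difference from EV was 0.19 for COL13A1 (adjusted p = 0.814), which in EV itself stood at 0.228 to 0.270 CPM with DMSO and 0.281 to 0.576 CPM with doxycycline, and 0.59 for COL9A1 (adjusted p = 0.0538).

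The lines also differed before doxycycline. With DMSO, sh4 differed from EV in 2 collagen genes, where 1.12% of all genes tested differed, and shAMB differed from EV in 2, where 1.52% did. COL6A6 was lower in both, at 30.7 to 35 CPM in sh4 and 32.0 to 32.3 CPM in shAMB against 46.6 to 51.1 CPM in EV (log2 fold change -0.55, adjusted p = 0.000244, and -0.60, adjusted p = 0.000101). The other gene in sh4 was COL4A1, at 36.1 to 42.8 CPM against 24.8 to 29.6 CPM (0.54, adjusted p = 0.0103). Its call was lost without EV DMSO replicate 1 (0.51), EV DMSO replicate 2 (0.49) or sh4 DMSO replicate 1 (0.45). In sh4 both COL4A1 and COL6A6 lost the call with a replicate block (adjusted p = 0.512 and 0.403) and with only the 2 groups fitted (adjusted p = 0.177 and 0.0606). In shAMB it was the minor fibrillar COL11A1, at 9.17, 8.58 and 9.74 CPM against 3.51, 3.83 and 3.49 CPM in EV (1.34, adjusted p = 2.32e-05). COL11A1 kept this level with doxycycline, at 8.76, 8.50 and 9.60 CPM.

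In the tumours, 17 of the 37 collagen genes tested differed between xenografts labelled knock-out and control xenografts, 9 higher and 8 lower. That is 45.9% of members, against 41.1% of all genes tested, 21.2% higher and 19.9% lower. The median log2 fold change was 0.28 over the members and 0.02 over all genes. All 5 fibril-associated collagens called of 9 tested were higher, and among fibrillar collagens 1 was higher and 3 were lower of 9. In bulk RNA, fewer cells of a type and less RNA per cell cannot be told apart. Between the groups the summed leukocyte markers did not overlap, at 1.22 to 1.63 CPM in control and 1.86 to 2.81 CPM in labelled knock-out tumours, and the summed endothelial markers overlapped at 1.32 to 2.39 and 1.95 to 2.88 CPM, as did the fibroblast markers at 72.2 to 101 and 60.1 to 99.2 CPM. The summed pericyte and smooth muscle markers stood apart at 7976 to 10252 CPM in control and 2383 to 3010 CPM in labelled knock-out tumours, nearly all of it RGS5 (7902 to 10207 and 2283 to 2939 CPM). The summed noradrenergic markers stood at 3393 to 4139 and 6876 to 9194 CPM, and the summed Schwann cell and mesenchymal neuroblastoma markers at 26.5 to 29.6 and 14.5 to 16.4 CPM, both with no overlap. By gene, 3 of 8 noradrenergic markers tested were called higher and 0 lower. Of 7 Schwann cell and mesenchymal markers tested, 1 was higher and 3 were lower, and 0 of 2 leukocyte markers tested passed. Of 8 pericyte and smooth muscle markers tested, 4 were higher and 2 lower, against the fall of their sum. Of 6 fibroblast markers tested 2 were higher and 1 lower, and of 4 endothelial markers 1 was higher and 1 lower. The sums therefore do not speak for every marker. The part of these markers in the differences below was not tested.

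COL16A1 read 1.39, 1.99, 2.79 and 1.96 CPM in control xenografts and 13, 13.5, 13 and 5.19 CPM in those labelled knock-out. Every labelled knock-out library was above the controls, with replicate 4 well below its group, and the log2 fold change was 2.45 ± 0.32 (edgeR adjusted p = 0.000177). COL22A1 read 2.20, 1.92, 3.12 and 2.21 CPM in control and 9.17, 13.4, 11.9 and 7.82 CPM in labelled knock-out tumours (2.16 ± 0.22, adjusted p = 4.7e-05). COL9A1 read 2.24, 2.44, 2.44 and 2.76 CPM and then 5.02, 5.95, 4.97 and 3.69 CPM (0.99 ± 0.18, adjusted p = 0.00156), and COL9A3 went from 0.213, 0.114, 0.0716 and 0.167 CPM to 0.437, 0.686, 0.825 and 0.481 CPM (2.10 ± 0.39, adjusted p = 0.00161). Neither gene overlapped between the groups. COL7A1 read 1.56, 2.57, 3.65 and 1.74 CPM and then 10.6, 7.42, 6.26 and 2.86 CPM, where replicate 4 fell within the control range (1.51 ± 0.38, adjusted p = 0.00895). COL12A1, which lies along collagen I fibrils, and COL24A1, a minor fibrillar chain, were higher at low levels. COL12A1 was at 0.0836 to 0.341 CPM in control and 0.592 to 1.32 CPM in labelled knock-out tumours (2.20 ± 0.50, adjusted p = 0.0052), and COL24A1 was at 0.064 to 0.117 and 0.244 to 0.704 CPM (2.11 ± 0.43, adjusted p = 0.0028).

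The clearest fall in the xenografts was that of COL6A6, from 39.0, 38.6, 39.2 and 41.9 CPM in control to 19.9, 13.1, 12.3 and 12.1 CPM in labelled knock-out tumours (-1.46 ± 0.16, adjusted p = 6.26e-05). COL6A5 was lower with overlap, at 0.619, 0.406, 0.788 and 1.09 CPM and then 0.174, 0.369, 0.280 and 0.423 CPM (-1.23 ± 0.38, adjusted p = 0.023). COL28A1, a collagen with von Willebrand factor A domains, went from 0.491, 0.926, 0.681 and 0.619 CPM to 0.209, 0.246, 0.125 and 0.269 CPM (-1.68 ± 0.34, adjusted p = 0.00244). COL2A1, the highest collagen per length in tumours, read 79.7, 103, 126 and 103 CPM in control and 82.6, 61.2, 52.7 and 26.5 CPM in labelled knock-out tumours. Replicate 1 of the labelled knock-out group overlapped the control group, and the log2 fold change was -0.88 ± 0.27 (adjusted p = 0.0242). COL5A2 fell from 6, 6.71, 7.58 and 5.77 CPM to 4.81, 3.54, 3.46 and 2.58 CPM (-0.86 ± 0.20, adjusted p = 0.00593), and COL11A1 from 14.4, 13.6, 16.0 and 14.7 CPM to 12.3, 11.1, 10.4 and 9.23 CPM (-0.45 ± 0.13, adjusted p = 0.0151). COL3A1, which moved in opposite directions in the culture lines, read 2.82, 3.97, 3.42 and 3.76 CPM and then 2.89, 7, 4.31 and 3.34 CPM and did not pass. Without labelled knock-out replicate 4, 20 collagen genes passed, 12 higher and 8 lower, 16 of them among the 17.

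**Figure D4:**
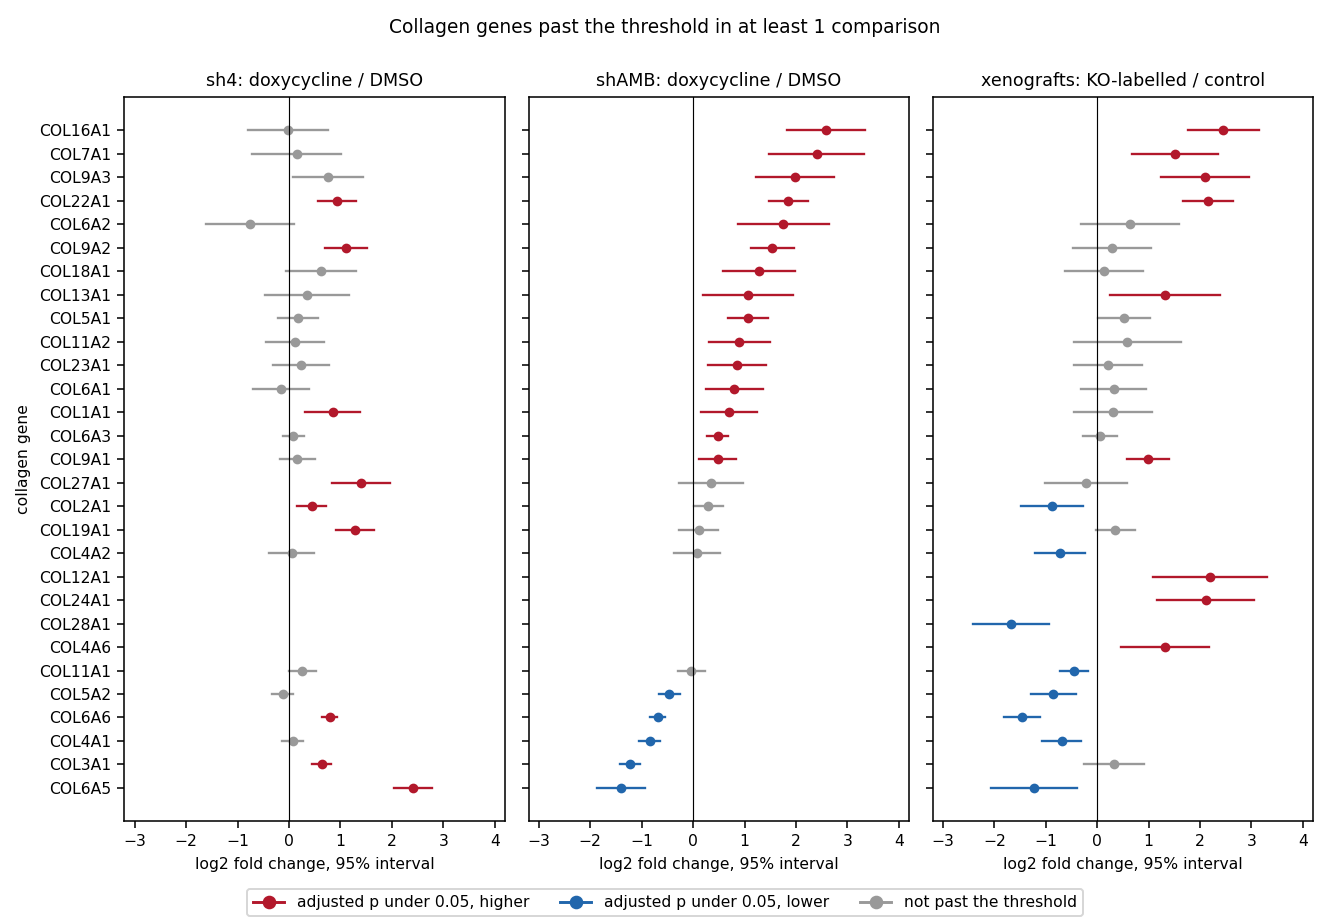
log2 fold change (point) and 95% interval (line) of collagen genes past the threshold in at least 1 of 3 comparisons, with doxycycline in sh4, with doxycycline in shAMB and between xenografts labelled knock-out and control (red higher, blue lower, grey not past the threshold). COL6A5 and COL6A6 lie right of 0 in sh4 and left of 0 in shAMB and in the xenografts. With GC content and gene length trends removed, which is not drawn here, COL1A1, COL6A1 and COL23A1 in shAMB come to just under 0 and do not pass.

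The sh4, shAMB and xenograft comparisons share no library. The study reports its Ambion-based hairpin both in culture and in tumours, and the name shAMB matches that hairpin. If shAMB is that hairpin, the shAMB and xenograft comparisons hold the same hairpin, though no label links them. Of the 20 collagen genes called in shAMB, 10 (50% of them, and 58.8% of the 17 called in the xenografts) were called in both, all 10 in the same direction. The 10 genes were COL7A1, COL9A1, COL9A3, COL13A1, COL16A1 and COL22A1, which were higher, and COL4A1, COL5A2, COL6A5 and COL6A6, which were lower. The calls of COL9A1 and COL13A1 in shAMB are the limited ones given above. Over all genes, 98.1% of the 5071 called in both went the same way, so the same direction is not particular to collagen genes. sh4 and shAMB shared 6 called collagen genes (66.7% of the 9 and 30% of the 20), of which COL1A1, COL9A2 and COL22A1 went the same way and COL3A1, COL6A5 and COL6A6 opposite ways, where 56.2% of all genes called in both went the same way. sh4 and the xenografts shared 4 (44.4% and 23.5%), of which COL22A1 went the same way and COL2A1, COL6A5 and COL6A6 did not, where all genes went the same way in 66.8%. COL22A1 was the member called higher in all 3 comparisons.

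Control xenografts were then compared with the DMSO cultures to see which collagens a tumour shows beside the cells in a dish. The sources used here describe no removal of mouse reads, and the tables do not separate species. Setting, table and library set cannot be told apart in this comparison. Of 36 collagen genes tested, 24 differed, 18 higher in xenografts and 6 lower. That is 66.7% of members against 66.9% of all genes tested, 34.5% higher and 32.4% lower. The median log2 fold change was 0.62 over the members and 0.03 over all genes.

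The collagens that fibroblasts make most were lower in xenografts or near 0. COL1A1 ranged from 7.51 to 17.0 CPM in the 9 DMSO cultures (median 9.65) and from 2.92 to 9.69 CPM in the 8 xenografts (median 5.37), so the ranges overlapped. In the control xenografts it was at 2.92, 9.69, 4.30 and 3.70 CPM (log2 fold change -1.06 ± 0.25, edgeR adjusted p = 0.000802). COL3A1 ranged from 22.5 to 35.7 CPM in DMSO cultures and from 2.82 to 7 CPM in the xenografts with no overlap (-2.99 ± 0.17, adjusted p = 2.07e-13). COL1A2, the chain that completes fibroblast collagen I, reached at most 0.0739 CPM in DMSO cultures and 0.334 CPM, 19 counts, in any xenograft library. It was at 0, 0.0226, 0 and 0.0502 CPM in control and 0.0697, 0.334, 0.187 and 0.231 CPM in labelled knock-out tumours, which did not overlap and were too low to test. Of other fibroblast markers, the proteoglycan DCN was at 0.036 to 0.156 CPM in xenografts and LUM at 0.209 to 0.686 CPM, below its 1.35 to 4.81 CPM in cultures. The 10 fibroblast markers summed to 94.7 to 164 CPM in cultures and 60.1 to 101 CPM in xenografts, and 6 of them were under 1 CPM in every xenograft library. FBLN1, a matrix glycoprotein, made up much of this sum at 25.8 to 65.3 CPM in xenografts and 58.6 to 103 CPM in cultures. By gene, 4 of 8 fibroblast markers tested were called higher in control xenografts than in DMSO cultures and 3 lower, so the sum does not speak for every marker. The 8 pericyte and smooth muscle markers summed to 4020 to 11500 CPM in cultures and 2380 to 10300 CPM in xenografts. The 9 endothelial markers summed to 0.94 to 2.36 CPM in cultures and 1.32 to 2.88 CPM in xenografts, and the 9 leukocyte markers to 0.65 to 2.33 and 1.22 to 2.81 CPM, with 8 genes of each list under 1 CPM in every library of both settings. In the same comparison, 3 of 5 endothelial markers tested were called higher and 1 lower, and 1 of 2 leukocyte markers higher and 0 lower. Of 8 pericyte and smooth muscle markers tested, 3 were higher and 3 lower. ADGRE1 was at 0 in both settings, and the globin genes HBA1, HBA2 and HBB were at 0 in all xenografts. Mouse reads that the human genes did not take up are not seen in these tables, so the markers tell only what was counted.

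The members higher in control xenografts were of other kinds. COL2A1 stood at 14.1 to 24.9 CPM in DMSO cultures and at 79.7 to 126 CPM in control xenografts (2.37 ± 0.16, adjusted p = 4.78e-12), with no overlap. COL11A1, its partner in cartilage fibrils, stood at 13.6 to 16.0 CPM against 3.49 to 9.74 CPM (1.49 ± 0.09, adjusted p = 3.19e-13). COL23A1 stood at 5.21 to 8.54 CPM against 1.40 to 3.08 CPM (1.94 ± 0.21, adjusted p = 2.42e-08). COL19A1 stood at 2.60 to 3.56 CPM against 0.769 to 1.39 CPM (1.63 ± 0.13, adjusted p = 7.32e-11), and COL16A1 at 1.39 to 2.79 CPM against 0.365 to 0.826 CPM (2.02 ± 0.26, adjusted p = 4.04e-07). None of these genes overlapped between settings. COL6A3 was called higher by 0.62 with overlap, and stood at -0.06 with the GC and length trends removed. Besides COL1A1 and COL3A1, COL5A1, COL6A5, COL9A1 and COL9A3 were lower, with log2 fold changes of -0.37, -0.51, -0.53 and -1.03. The call of COL6A5 was lost with DESeq2, against EV DMSO alone, and without EV DMSO replicate 3 or control xenograft replicate 1, 2 or 3 (-0.61 to -0.32). The call of COL9A3 was lost against EV DMSO alone (-0.95) and without control xenograft replicate 3 (-0.79).

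Several members had few counts in cultures, so the ratio of their summed counts, scaled to library size, is given with an exact 95% interval that covers counting error only. COL10A1, the collagen of hypertrophic cartilage, had 40 counts in the 9 DMSO cultures and 535 in the 4 control xenografts, a ratio of 24.9 (18 to 35.2). COL17A1, the hemidesmosome collagen of skin, had 11 and 238 counts, a ratio of 40.2 (22.1 to 81.6). COL28A1 had 6 and 139 counts, a ratio of 43.0 (19.3 to 119). Each of the 3 was present in every control xenograft library. The fibril-associated COL21A1 had 11 and 127 counts (ratio 21.5, 11.6 to 44.1) and COL12A1 22 and 40 (3.38, 1.96 to 5.97), and the fibrillar COL24A1 had 8 and 20 (4.65, 1.96 to 12.2). COL10A1 and COL17A1 did not pass between the xenograft groups. They read 2.67, 3.64, 2.13 and 2.17 CPM and 1.88, 1.04, 0.663 and 1.12 CPM in control xenografts, and 2.42, 1.90, 1.01 and 1.35 CPM and 1.99, 0.475, 0.654 and 1.11 CPM in those labelled knock-out.

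**Figure D5:**
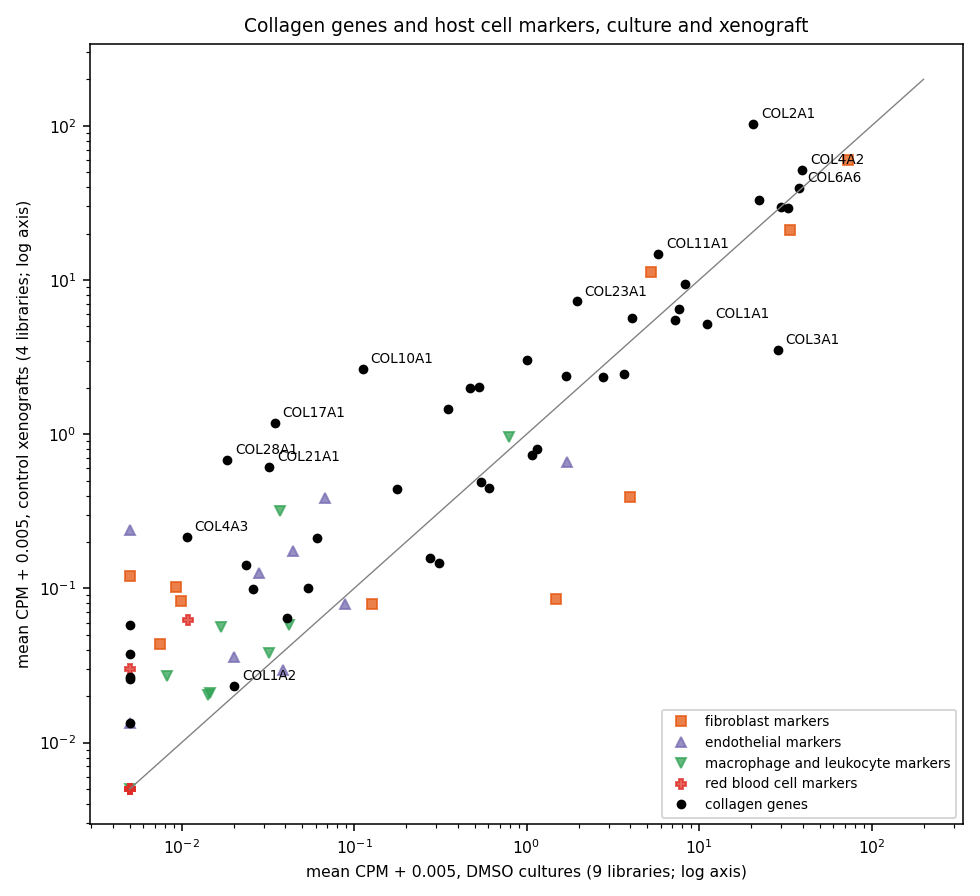
Mean CPM plus 0.005 of each collagen gene (black) and each host cell marker (coloured by list) in the 9 DMSO cultures (x, log axis) and the 4 control xenografts (y, log axis), with the line of equal level. COL3A1 and COL1A1 lie under the line, COL2A1 lies above it, COL10A1, COL17A1 and COL28A1 lie furthest above it among the collagen genes at or above 0.5 CPM in xenografts, and most endothelial, leukocyte and red cell markers stay under 1 CPM on both axes.

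The 6 collagen IV genes lie as 3 pairs that start beside each other on opposite strands, in the GRCh38.p14 annotation of RefSeq. COL4A1 and COL4A2 on chromosome 13 have 126 bases between their starts, COL4A3 and COL4A4 on chromosome 2 have 135 and COL4A5 and COL4A6 on chromosome X have 379. COL4A1 lies at chr13:110148963-110307157 and COL4A2 at chr13:110307284-110513209. The sequence between both starts, chr13:110307158-110307283 on the plus strand, is shown because these genes did not move alike, with GGGCGG (the GC box) and CCAAT (the CCAAT box) in capitals:
COL4A1 and COL4A2 between both starts: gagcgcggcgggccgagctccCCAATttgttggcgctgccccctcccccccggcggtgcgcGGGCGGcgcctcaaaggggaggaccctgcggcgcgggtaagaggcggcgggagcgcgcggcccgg
It holds 1 GGGCGG and 1 CCAAT on either strand and no TATAAA. Searched on both strands in the 35116 RefSeq windows from 250 bases before to 50 after a start, GGGCGG was present in 45.0%, CCAAT in 34.6% and TATAAA in 11.5%. Of the 44 windows of the 32 members that have one, 24, 14 and 8 held them.

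COL4A1 fell in shAMB with doxycycline, while COL4A2 read 35.8, 29.4 and 37.0 CPM with DMSO and 30.2, 37.2 and 40.3 CPM with doxycycline and did not pass. With GC and length trends removed COL4A2 stood at -0.74 and passed. Both genes fell in the labelled knock-out xenografts. COL4A1 read 24.0, 29.9, 31.8 and 31.7 CPM in control and 16.7, 23.4, 19.6 and 12.9 CPM in labelled knock-out tumours (-0.69 ± 0.17, adjusted p = 0.00827), with no overlap. COL4A2 read 35.3, 50.9, 62.2 and 57.8 CPM and then 38.2, 34.4, 32.8 and 18.8 CPM (-0.73 ± 0.22, adjusted p = 0.0219), with overlap by 1 labelled knock-out library. The other pairs were low. COL4A4 was at 1.61 to 2.28 CPM in control and 1.54 to 2.55 CPM in labelled knock-out xenografts, above its 0.105 to 0.751 CPM in cultures (control xenografts against DMSO cultures 2.14 ± 0.21, adjusted p = 3.69e-09). Its neighbour COL4A3 had 2 counts in all 9 DMSO cultures and 44 in the control xenografts, a ratio of 40.9 (10.7 to 348, counting error only). COL4A3 shares 6.82% of its exon length with the antisense gene MFF-DT. COL4A6 had 7 and 28 counts (7.43, 3.17 to 20.2) and was higher in labelled knock-out than in control xenografts, at 0.249 to 0.481 against 0.0716 to 0.181 CPM (1.32 ± 0.39, adjusted p = 0.0189). COL4A5 was at 0 in all 18 cultures and reached at most 0.158 CPM in xenografts.

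Outside collagen IV, 4 more pairs of members lie within 100 kb of each other. COL6A5 (chr3:130345672-130484846) and COL6A6 (chr3:130516720-130677042) are 31.9 kb apart, and each rose in sh4 and fell in shAMB and in the labelled knock-out xenografts. COL3A1 (chr2:188974373-189012746) and COL5A2 (chr2:189031898-189441111), 19.2 kb apart, both fell in shAMB, while in sh4 COL3A1 rose and COL5A2, at 6.59 to 7.90 CPM with DMSO and 6.06 to 7.36 CPM with doxycycline, did not pass. COL19A1 and COL9A1, 2.59 kb apart on chromosome 6, were called apart in the doxycycline and knock-out comparisons, COL19A1 in sh4 and COL9A1 in shAMB and the xenografts, and in opposite directions between control xenografts and cultures (1.63 and -0.53). COL6A1 and COL6A2, 93.1 kb apart on chromosome 21, both passed in shAMB and neither passed in the xenografts, where COL6A2 read 2.77, 5.94, 8.40 and 5.6 CPM in control and 15.1, 8.72, 8.61 and 2.88 CPM in labelled knock-out tumours. The 250 bases before the start in the RefSeq promoter table of COL16A1, the member with the largest rise in shAMB and in the labelled knock-out xenografts, and of COL6A6, the member that fell most clearly there, are shown with GGGCGG in capitals. COL16A1 lies at chr1:31652263-31704017 and its sequence at chr1:31704018-31704267 on the minus strand, and the sequence of COL6A6 lies at chr3:130516927-130517176 on the plus strand. For COL6A6 the start is position 130517177, that of the RefSeq promoter table, while the gene's interval given above begins upstream of it, so this sequence lies within that interval:
COL16A1 before the start: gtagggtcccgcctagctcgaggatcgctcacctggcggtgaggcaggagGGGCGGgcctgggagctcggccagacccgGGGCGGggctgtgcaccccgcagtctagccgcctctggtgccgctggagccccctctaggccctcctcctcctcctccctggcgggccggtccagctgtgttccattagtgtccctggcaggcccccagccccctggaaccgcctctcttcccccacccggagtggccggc
COL6A6 before the start: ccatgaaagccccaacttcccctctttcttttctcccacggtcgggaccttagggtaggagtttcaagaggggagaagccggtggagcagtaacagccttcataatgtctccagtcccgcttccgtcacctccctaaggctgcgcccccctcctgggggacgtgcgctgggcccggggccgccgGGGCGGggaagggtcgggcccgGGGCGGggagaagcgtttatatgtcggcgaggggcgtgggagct
Each sequence holds 2 GGGCGG and no CCAAT. The GC content was 73.2% before COL16A1 and 65.6% before COL6A6. The COL6A6 sequence also holds 1 TATAAA on the strand opposite to the one shown, where it reads TTTATA. COL16A1 rose and COL6A6 fell in shAMB and in the labelled knock-out xenografts, and the sequences shown hold the same count of GGGCGG.

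The genes that fold, cut and bind collagens were read from the same fits. Over all genes tested, 40.9% were called in sh4, 66.0% in shAMB and 41.1% between the xenografts. Of the folding and modification genes tested, 29.4%, 52.9% and 41.2% were called. The lists are short, and whether their shares differ from those of all genes was not tested. In EV none of the 5 lists had a gene past the threshold. Of the 17 folding and modification genes tested, 2 were higher and 3 lower in sh4, 5 and 4 in shAMB, and 1 and 6 in the labelled knock-out xenografts. PLOD2, a lysyl hydroxylase that prepares collagen for crosslinks, rose in sh4 by 0.48 ± 0.07 on the log2 scale and fell by 0.99 ± 0.07 in shAMB and by 0.89 in the xenografts, the pattern of COL6A5 and COL6A6. P4HA1, a subunit of the prolyl hydroxylase that stabilises the helix, fell by 0.83 ± 0.08 in shAMB and by 0.96 in the xenografts, and P4HB, its partner, fell by 0.88 ± 0.12 in sh4. Of 17 genes of export, processing and crosslinking, 10 were higher and 2 lower in sh4, 10 and 3 in shAMB, and 6 and 3 in the xenografts. LOXL4, a lysyl oxidase that crosslinks collagen, was higher in all 3 comparisons, by 0.54, 1.26 and 0.73, but its sh4 call was lost with DESeq2, with a replicate block (adjusted p = 0.0641), with only the 2 groups fitted and without sh4 DMSO replicate 3 (0.43) or sh4 doxycycline replicate 2 (0.40). PXDN, which crosslinks collagen IV, rose by 1.09 in sh4 and 0.69 in shAMB, and PCOLCE2, an enhancer of propeptide removal, rose by 0.95 in sh4 and fell by 0.18 in shAMB and 0.51 in the xenografts. Its shAMB call was lost without shAMB doxycycline replicate 3 (-0.12).

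The next 3 lists stand beside the same shares of all genes tested, 40.9% in sh4, 66.0% in shAMB and 41.1% between the xenografts. Of 8 collagen receptor genes tested, 2 were higher and 2 lower in sh4, 3 and 3 in shAMB, and 3 and 0 in the xenografts. ITGA11, the alpha chain of a fibrillar collagen receptor, fell by 0.55 in sh4 and rose by 1.67 in shAMB and 0.63 in the xenografts, and DDR1, a kinase that binds collagen, rose by 1.67 in shAMB and 0.66 in the xenografts. The call of ITGA11 was lost in 7 of 14 alternatives in sh4, among them leaving out DMSO replicate 1 or 2 or doxycycline replicate 1 or 2 (-0.55 to -0.37), and in 5 of 15 in the xenografts, among them leaving out control replicate 1 or 3 or labelled knock-out replicate 3 (0.51 to 0.60). The xenograft call of DDR1 was lost without labelled knock-out replicate 3 (0.59). Of the breakdown genes, 4 were higher and 1 lower of 7 tested in sh4, 3 and 2 of 7 in shAMB, and 2 and 0 of 11 in the xenografts. TIMP3, a metalloproteinase inhibitor, rose by 0.49 in sh4 and 1.5 in the xenografts, and the membrane metalloproteinase MMP15 rose by 1.61 in shAMB and 1.01 in the xenografts. The xenograft call of MMP15 was lost in 9 of 15 alternatives, among them leaving out control replicate 1, 2 or 4 or labelled knock-out replicate 1, 2 or 3 (0.72 to 1.09, adjusted p up to 0.124). Of 12 basement membrane partners of collagen IV tested, 4 were higher and 1 lower in sh4, 9 and 1 in shAMB, and 4 and 4 in the xenografts. The laminin chain LAMA5 rose by 2.00 in shAMB, and NID2, which links laminin to collagen IV, rose by 1.23 in sh4 and fell by 0.72 in the xenografts. In control xenografts against DMSO cultures 9 of the 12 partners were higher and 0 lower, where 34.5% of all genes tested were higher and 32.4% lower. LAMA3 was highest by fold, at group means of 0.383 to 1.09 CPM in cultures and 26.5 CPM in control xenografts (5.90).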

How the data were processed

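The authors deposited 2 tables of expected counts per gene, from STAR, SAMtools and RSEM on hg38 per the labels, without normalization, for 18 cell culture and 8 xenograft libraries, 91.8% and 91.0% of the values whole numbers. Versions, strand setting and any removal of mouse reads are not given in the sources used here. The labels give both poly(A) RNA and a total RNA kit. Culture column names hold Neg or Pos, taken here to mean DMSO or doxycycline, and every direction in culture rests on this. TPM tables that the authors deposited from the same RSEM runs served only to check the order of levels. Counts were rounded and fitted with edgeR 4.0.16 (R 4.3.3; filterByExpr, TMM, quasi-likelihood F test, Benjamini-Hochberg over all genes tested, threshold 0.05) in 3 fits: cultures, xenografts, and both. TMM factors were 0.974 to 1.07 and 0.936 to 1.09 and the typical coefficient of biological variation (BCV) 0.115 and 0.186. Alternatives were DESeq2 1.42.0, other scalings and filters, GC and length trends removed, a replicate block and each library left out. The steps were tested on simulated data. Values per library are given for the 12 members highest per length in each setting, for COL4A1 to COL4A6, and for the 8 members with the largest called change in each doxycycline, xenograft and xenograft against culture comparison. Pathway genes named are up to 4 per list with the largest called change in sh4, shAMB or the xenografts and a mean of at least 1 CPM. Other members named were chosen after their values were seen. Members and lists were chosen with earlier results of these data known. No 2 libraries held identical values.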

Additional observations from a re-analysis of the deposited data

Results flagged for a closer look

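Of 66 groups of 4 xenograft values tested for a library far from the rest, 3 had one, where chance gives about 1 in 20. COL16A1 in labelled knock-out replicate 4 was the lowest of its group at 5.19 CPM, against 13 to 13.5 CPM. COL6A6 in labelled knock-out replicate 1 was the highest of its group at 19.9 CPM, against 12.1 to 13.1 CPM. COL21A1 in control replicate 2 was the lowest of its group at 0.497 CPM, against 0.636 to 0.662 CPM.

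The effect of doxycycline differed between sh4 and shAMB for 14 named collagen genes by the test of the difference itself (edgeR). On the log2 scale, as sh4 minus shAMB, it was 3.81 for COL6A5, 1.87 for COL3A1, 1.48 for COL6A6, 1.18 for COL19A1, 1.04 for COL27A1, 0.92 for COL4A1 and 0.34 for COL5A2. It was -2.61 for COL16A1, -2.52 for COL6A2, -2.25 for COL7A1, -1.23 for COL9A3, -0.96 for COL6A1, -0.91 for COL22A1 and -0.39 for COL6A3. With GC and length trends removed the differences of COL6A1, COL6A3 and COL9A3 turned, as given below, and that of COL22A1 was -0.18, and none of these passed. The call of COL9A3 was lost in 12, that of COL6A1 in 8 and that of COL6A3 in 6 of 19 alternatives, mostly on leaving out 1 library.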

How the results depend on the processing

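Counts of collagen genes past the threshold are compared with 9 in sh4, 20 in shAMB, 17 in the xenografts and 24 between control xenografts and cultures. A minimum absolute log2 fold change of 1 left 4 in sh4, 11 in shAMB, 11 in the xenografts, 5 for sh4 minus EV, 9 for shAMB minus EV, 10 for sh4 minus shAMB, and 0 and 1 between the DMSO libraries of sh4 or shAMB and EV. With GC and length trends removed, 1 passed in EV, 16 in sh4, 16 for sh4 minus EV, and 4 and 6 between the DMSO libraries of sh4 or shAMB and EV. Over all 14905 genes tested, this step took the calls from 14 to 54 in EV and from 6091 to 8223 in sh4. It took them from 4856 to 6662 for sh4 minus EV, and from 167 to 823 and 227 to 885 between those DMSO libraries. Same replicate numbers did not pair the libraries (correlations of deviations -0.541 to -0.0872 in EV, -0.856 to -0.0214 in sh4, -0.306 to 0.307 in shAMB and -0.68 to 0.434 in xenografts). With a replicate block 0, 7, 17 and 14 passed in EV, sh4, shAMB and the xenografts, 25 between control xenografts and cultures, 6 for sh4 minus EV, 11 for shAMB minus EV, 10 for sh4 minus shAMB and 0 and 0 between the DMSO libraries. With only the 2 groups compared, 0 passed for sh4 against EV with DMSO. Leaving out each library in turn gave 0 to 0 in EV, 7 to 11 in sh4, 15 to 22 in shAMB, 13 to 20 in the xenografts, 21 to 25 between control xenografts and cultures, 6 to 10 for sh4 minus EV, 12 to 14 for shAMB minus EV, 11 to 18 for sh4 minus shAMB, 1 to 2 for sh4 against EV with DMSO (1, COL6A6, without EV DMSO replicate 1 or 2 or sh4 DMSO replicate 1) and 2 to 2 for shAMB against EV. DESeq2 called 0, 9, 19, 17 and 22 in EV, sh4, shAMB, the xenografts and control xenografts against cultures. It moved the median of all genes in the last comparison from 0.03 to 0.14.

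Over 150 values of named genes and 2522 alternative values, 2287 kept direction and side of the threshold, 226 no longer passed and 9 reversed, all with GC and length trends removed. These were COL6A1 (-0.0099), COL1A1 (-0.10), COL23A1 (-0.035) and HSPG2 (-0.089) in shAMB, COL6A1 (0.043), COL6A3 (0.013) and COL9A3 (0.18) for sh4 minus shAMB, and COL6A3 (-0.063) and HSPG2 (-0.35) for control xenografts against cultures. None of the reversed collagen values passed. In shAMB, COL6A1 and COL1A1 also no longer passed without DMSO replicate 2 or doxycycline replicate 3. In the xenografts, COL4A2 no longer passed without control replicate 3 or 4, COL2A1 without control replicate 2 or 3 or labelled knock-out replicate 3, COL4A6 without control replicate 1 or 3 or labelled knock-out replicate 4, and COL6A5 without control replicate 3 or 4 or labelled knock-out replicate 3. Members under 1 CPM are limited by counting error, and the cause of the changes was not tested.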
